A study of Mus musculus with 6 samples.

Results

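The 10 genes described here make, modify or break down ether lipids: Far1, Far2, Gnpat, Agps, Dhrs7b, Ept1, Tmem189, Pex7, Agmo and Tmem86a. They were taken by gene symbol from the 23396 genes of the deposited table, where all 10 were found, and all 10 passed the filter on low counts that left 14354 genes to test. The right kidney of each of 6 male mice, 6 months old and untreated, gave the RNA. The strain C57BL/6N-Far2tm2a(KOMP)Wtsi/2J, homozygous for a targeted Far2 allele, gave 3 libraries (knockout), and C57BL/6N gave 3 (wild type). The labels do not say which part of Far2 the allele removes, and they call the samples biological replicates.

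Ether lipids carry a fatty alcohol on glycerol in place of a fatty acid. A fatty acyl-CoA reductase, Far1 or Far2, makes the alcohol from acyl-CoA. Inside the peroxisome Gnpat puts an acyl chain on dihydroxyacetone phosphate and Agps exchanges that chain for the alcohol, and Pex7 is the receptor that brings Agps into the peroxisome. Dhrs7b reduces the product, Ept1 adds the ethanolamine head group, and Tmem189 introduces the vinyl ether bond that makes a plasmalogen. Agmo cleaves ether lipids and Tmem86a hydrolyses lysoplasmalogens. Plasmalogens are known mainly from membranes of brain and heart and also occur in kidney.

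The promoters of the paralogs Far1 and Far2 are shown because Far1 was among the most abundant genes of the set and Far2 was the lowest, as described further on. They are RefSeq sequences of the build GRCm38.p6 that run from 250 bases before to 50 bases after the annotated start. Far1 is chr7:113513584-113513883 on the plus strand, with CCAAT in capitals, written as ATTGG where it lies on the other strand. Far2 is chr6:148047166-148047465 on the plus strand, with TATATA in capitals. The letters to mark were chosen after the sequences had been seen.
Far1: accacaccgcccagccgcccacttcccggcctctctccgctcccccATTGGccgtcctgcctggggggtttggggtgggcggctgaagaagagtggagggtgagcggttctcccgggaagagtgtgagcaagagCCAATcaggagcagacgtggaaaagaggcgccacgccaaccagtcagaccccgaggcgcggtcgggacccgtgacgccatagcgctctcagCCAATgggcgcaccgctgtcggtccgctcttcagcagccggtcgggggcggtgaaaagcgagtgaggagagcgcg
Far2: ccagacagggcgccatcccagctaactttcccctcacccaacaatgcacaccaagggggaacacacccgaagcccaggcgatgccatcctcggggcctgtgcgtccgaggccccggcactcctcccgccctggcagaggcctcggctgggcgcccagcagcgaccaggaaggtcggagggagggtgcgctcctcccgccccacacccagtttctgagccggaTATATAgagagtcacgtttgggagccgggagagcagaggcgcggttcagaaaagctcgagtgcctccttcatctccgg

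The Far1 promoter holds 3 copies of CCAAT, whose positions nearest the start are 25 to 21 bases before it, and the Far2 promoter holds none. Far2 holds TATATA from 28 to 23 bases before the RefSeq start. The span of Far2 in the GENCODE M21 annotation begins at chr6:148047259, inside the printed sequence and before TATATA. The distance therefore holds for the RefSeq start only. Both strands were searched in 32817 promoters of the same length, and CCAAT occurred in 37.4% of them, TATATA in 5.67% and TATAAA in 13.6%. GGGCGG, the core of the GC box, occurred in 35.6%. Promoters of 9 of the 10 genes were found, and Tmem189 was not among them. CCAAT was in 6 of the 9 (Far1, Agps, Dhrs7b, Ept1, Pex7 and Tmem86a), TATATA in Far2 alone, TATAAA in 0 and GGGCGG in 7 (Far1, Far2, Agps, Gnpat, Ept1, Pex7 and Tmem86a). The direct repeat of AGGTCA spaced by 1 base, which PPAR receptors are known to bind, was in 0 of the 9 and in 0.0396% of all. TATAAA and TATATA share their first 4 letters. GC made up 67.7% of the Far1 promoter, 66% of that of Far2 and 39.7% of that of Agmo, against a median of 52.7% over all promoters.

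The libraries held 15261362 to 20631158 fragments assigned to genes, and edgeR estimated a biological coefficient of variation of 10.1%. Markers of kidney tubule were abundant in all 6 libraries. The summed level of 6 proximal tubule markers was 13922 to 17361 CPM (CPM are fragment counts divided by the size of the library, which was scaled by TMM, a method that evens out composition) in wild type and 15444 to 16468 CPM in knockout. Of 10 macrophage markers, 10 had a lower mean in knockout, while 48.3% of all genes had a higher mean there. The summed levels of these markers were 249, 133 and 130.0 CPM in wild-type libraries 0, 1 and 2. In knockout libraries 0, 1 and 2 the sums were 109.6, 145 and 136 CPM. The sums of the groups overlapped, and wild-type library 0 alone lay above the rest. Without overlap, 2 of the markers were lower in knockout, against 6.96% of all genes. These were Csf1r (61.2, 60.9 and 63.7 CPM in wild type against 49.2, 59.0 and 56.4 CPM in knockout) and Fcgr1 (12 to 42 fragments). Of the 6 tested adipocyte markers, 6 had a higher mean in knockout, against 48.3% of all genes. Their sums were 52.9 to 60.1 CPM in wild type and 63.4 to 101 CPM in knockout. Most of each sum came from Fabp4 and Lipe, and Fabp4 was the 1 marker without overlap, against 7.12% of all genes. Adipoq (0.595, 0.19 and 0.844 CPM against 0.854, 0.199 and 2.05 CPM) and Plin1 overlapped between the groups. Knockout library 2 had the highest sum of the adipocyte markers, and its Adipoq count was 38 fragments against 3 to 15 in the other 5 libraries. Ucp1, another of these markers, was at 21.1 CPM in knockout library 2 and at 1.65 and 1.06 CPM in knockout libraries 0 and 1. In wild-type libraries 0, 1 and 2 Ucp1 was at 4.02, 0.379 and 2.08 CPM. Wild-type library 0 stood apart for 5 tubular injury markers, at 1184 CPM against 484 to 609 CPM in the other libraries, and its Havcr1, an injury protein of proximal tubule, was at 21.5 CPM against 0.617 to 0.916. Results with and without each library are given below, and in bulk tissue fewer cells of a type and less RNA per cell cannot be told apart.

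Far2, the targeted gene, was barely detected in either group. Wild-type libraries 0, 1 and 2 held 40, 40 and 22 of its fragments, and knockout libraries 0, 1 and 2 held 28, 19 and 31. On the CPM scale these are 1.98, 1.90 and 1.43 in wild type and 1.59, 1.26 and 1.67 in knockout. The ranges of the groups overlapped, since wild-type library 2 lay below knockout libraries 0 and 2. The ratio of knockout to wild type was 0.851 (95% confidence interval 0.584 to 1.24; log2 fold change -0.23 ± 0.24, SE). The log2 fold change was -0.13 with knockout library 1 left out, -0.15 with wild-type library 0 left out and -0.35 with wild-type library 2 left out. By edgeR's quasi-likelihood test, used for all p-values of single genes here with Benjamini-Hochberg adjustment over all genes tested, Far2 did not pass (adjusted p = 0.781). The sources used here do not say which exons of Far2 these counts cover. The counts therefore do not check the genotype labels, and the groups are named here as labelled.

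In the GENCODE M21 annotation of GRCm38 (the assembly called mm10 in the submitters' processing notes), Far2 (ENSMUSG00000030303.15) spans chr6:148047259-148182758 on the plus strand, and its longest transcript has 3480 bases in 12 exons. The authors' deposited table gives the row of Far2 a longer locus, chr6:148047416-148444352, which ends far beyond this span, and it does not say which exons were counted. Ergic2, on the opposite strand, shares 837 bases of exon with it and was at 49.8 to 63.8 CPM in the 6 libraries. The libraries were stranded, but the strand setting of the counting is not given in the sources used here. How many of the few Far2 fragments belong to Ergic2 therefore cannot be told from these counts. Far1 (ENSMUSG00000030759.16) spans chr7:113513834-113571511 on the plus strand and shares 80 exon bases with the antisense gene Far1os. The longest exact run shared by the longest transcripts of Far1 and Far2 is 14 bases. None of the 4913 windows of 50 bases in Far1 matched another gene, and 3 of 3431 in Far2 did, all in Rmi2.

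Far1 was the abundant reductase in kidney. Levels of different genes are compared per transcript length, as the authors' FPKM (fragments scaled by transcript length and library size). Far1 stood at 85.8, 64.6 and 86.4 FPKM in wild-type libraries 0, 1 and 2 and at 77.0, 91.7 and 87.9 FPKM in knockout libraries 0, 1 and 2. Far2 stood at 0.594, 0.570 and 0.402 FPKM in wild type and at 0.460, 0.367 and 0.488 FPKM in knockout. In each library Far1 was 113 to 250.2 times Far2, with a mean ratio of 178. Far2 made up 0.675 ± 0.206% (SD, n = 3) of the summed FPKM of both genes in wild type and 0.514 ± 0.103% in knockout. The difference of -0.161 percentage points did not pass an exact permutation test (two-sided p = 0.3, with 0.1 the smallest p that 3 against 3 libraries allow). It was -0.0613 points with wild-type library 1 left out, -0.103 with knockout library 1 left out and -0.267 with wild-type library 2 left out.

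The genes fell into levels that were set apart from each other in all libraries. Averaged over the 6 libraries, Agps stood at 83.5 FPKM, Far1 at 82.3 FPKM and Tmem189 at 66.1 FPKM. Agps ranged from 47.8 to 106 FPKM and was above Far1 in 4 of 6 libraries, so their order is not fixed by these data. The ranges of Far1 and Tmem189 also overlapped, although Far1 was higher in 6 of 6 libraries. Pex7 followed at 35.6 FPKM and Gnpat at 31.5 FPKM, with overlapping ranges and Pex7 higher in 5 of 6 libraries. Tmem86a at 16.2 FPKM and Dhrs7b at 15.6 FPKM overlapped, with Tmem86a higher in 4 of 6. Ept1 at 5.49 FPKM and Agmo at 4.07 FPKM overlapped, with Ept1 higher in 6 of 6, and Far2 was last at 0.480 FPKM. Ranges did not overlap between Tmem189 and Pex7, Gnpat and Tmem86a, Dhrs7b and Ept1, or Agmo and Far2. Among all 14354 tested genes Agps was at percentile 94.1, Far1 at 94.0 and Far2 at 8.

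**Figure D1:**
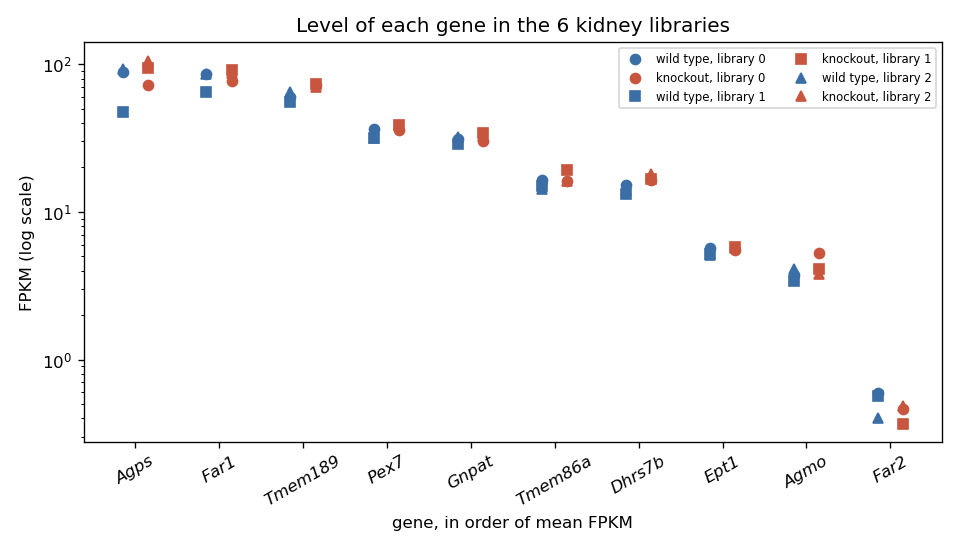
FPKM of the 10 genes on a log axis, 1 point for each of the 6 libraries, with wild type and knockout in different colours. Agps, Far1 and Tmem189 lie highest, with means of 83.5, 82.3 and 66.1 FPKM, and Far2 lies lowest at 0.480 FPKM.

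The comparison of knockout with wild type asks whether the labelled Far2 genotype goes along with other levels of the paralog Far1 and of the enzymes that use or follow the fatty alcohol. After adjustment edgeR called none of the 10 genes and no other gene (0% of 14354; 1193 genes, or 8.31%, had an unadjusted p under 0.05). DESeq2 called 13 genes (0.0906%), none of them among the 10. The mean was higher in knockout for 9 of the 10 genes, against 48.3% of all genes. The median log2 fold change of the 10 was 0.19, against -0.01 over all genes. Of the 10, 3 had an unadjusted p under 0.05 and were higher in knockout, against 3.17% of all genes, and these were Dhrs7b, Tmem189 and Pex7. The groups did not overlap on the CPM scale for 4 genes, all higher in knockout, against 7.12% of all genes, and on the FPKM scale for 2, against 6.78%. The genes were measured in the same 6 libraries, so these counts are not independent results.

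**Figure D2:**
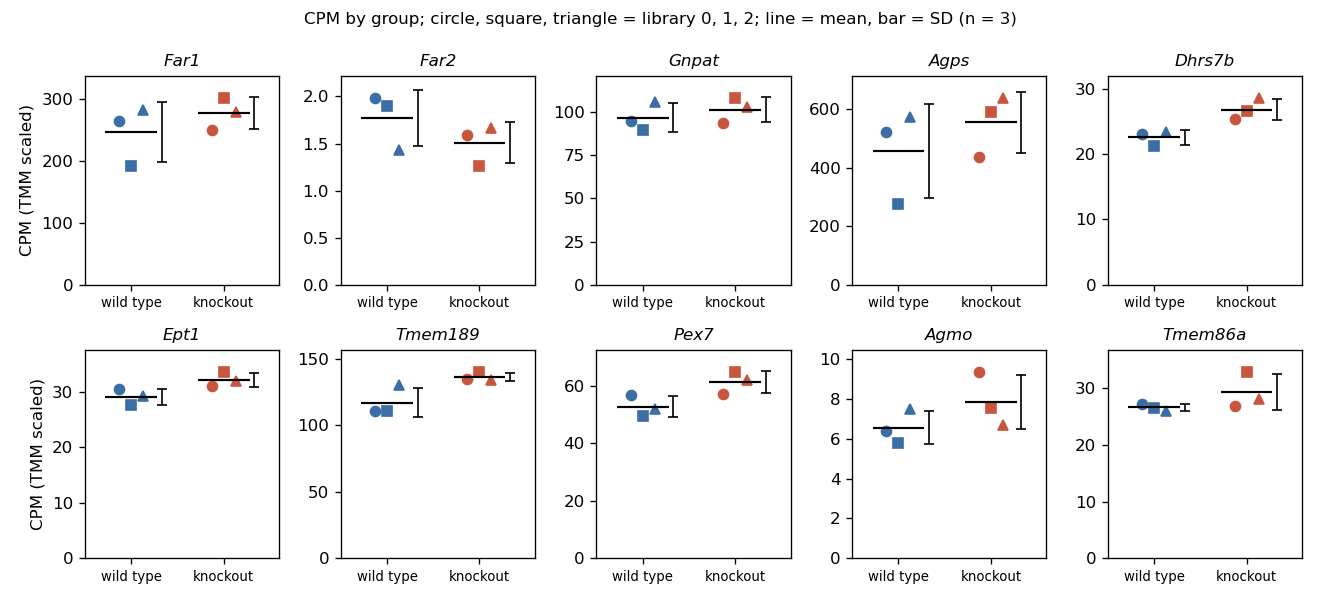
CPM of each gene in the 3 wild-type and 3 knockout libraries, with the group mean as a line and the SD as a bar, each axis starting at 0. The groups do not overlap for Dhrs7b, Ept1, Tmem189 and Pex7, and wild-type library 1 lies lowest for Far1 and Agps.

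Far1 was at 264, 191 and 282 CPM in wild-type libraries 0, 1 and 2 and at 249.6, 300.4 and 279 CPM in knockout libraries 0, 1 and 2. Wild-type library 1 was the lowest of the 6 and the other 5 lay close together, with the groups overlapping. The log2 fold change was 0.17 ± 0.13 (SE), with a 95% confidence interval of -0.13 to 0.47 (edgeR, adjusted p = 0.708). Without wild-type library 1 it was 0.02, so the difference in means rested on that library, and it was 0.10 without knockout library 1 and 0.28 without wild-type library 2. The upper end of the interval is the largest increase of the paralog that these libraries allow at that confidence.

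Gnpat, which starts the peroxisomal steps, had the smallest fold change of the set. It was at 94.6, 89.6 and 106 CPM in wild type and at 93.6, 108 and 103 CPM in knockout, and the groups overlapped. Gnpat lies at chr8:124863033-124890057 on the plus strand. Its log2 fold change was 0.07 ± 0.082 (SE), with an interval of -0.11 to 0.25. It was 0.02 without wild-type library 1 or knockout library 1, 0.13 without knockout library 0 and 0.14 without wild-type library 2. In its longest transcript 7.87% of the 50-base windows also match Gm16163, a transcript on the same strand, so part of its count is uncertain. Gnpat also shares 88 bases of exon with 2810004N23Rik on the opposite strand.

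Agps, which installs the ether bond and lies at chr2:75832177-75931350 on the plus strand, varied most between mice. It was at 522, 275 and 575 CPM in wild type and at 438, 591 and 638 CPM in knockout. Wild-type library 1 had less than any other library, and knockout library 0 lay below the 2 other wild-type libraries. Its coefficient of variation was 35.0% in wild type and 18.9% in knockout, and its FPKM differed 2.21-fold between the highest and lowest library, against 1.19-fold for Gnpat. The log2 fold change was 0.28 ± 0.24 (SE), with an interval of -0.25 to 0.82. It was 0.02 without wild-type library 1, 0.17 without knockout library 2, 0.43 without knockout library 0 and 0.48 without wild-type library 2. The ratio of Agps to Gnpat FPKM was 2.87, 1.66 and 2.87 in wild type and 2.39, 2.75 and 3.23 in knockout. The ratio of these partner enzymes was lowest in wild-type library 1, and the groups overlapped.

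Dhrs7b, the acyl and alkyl dihydroxyacetone phosphate reductase, had the smallest p of the set by edgeR. By DESeq2 the unadjusted p of Tmem189 was smaller (0.0164, against 0.0357 for Dhrs7b). The gene lies at chr11:60830631-60860195 on the plus strand, and 2.2% of the 50-base windows of its longest transcript also match other genes. It was at 23.1, 21.2 and 23.3 CPM in wild type and at 25.3, 26.5 and 28.5 CPM in knockout. All 3 knockout libraries lay above all 3 wild-type libraries, on the FPKM scale too, where the values were 15.1, 13.2 and 14.0 in wild type and 16.4, 16.8 and 18.0 in knockout. The ratio was 1.19 (95% confidence interval 1.04 to 1.35; log2 fold change 0.25 ± 0.083, SE). Its unadjusted p was 0.0141 and its adjusted p 0.599 by edgeR, and with each library left out the log2 fold change was 0.20 to 0.29.

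Tmem189, the desaturase that turns alkyl into vinyl ether lipids, was at 111, 110.5 and 130.1 CPM in wild type and at 135, 140.2 and 134 CPM in knockout. The groups did not overlap, but wild-type library 2 came within a few CPM of the lowest knockout library. The ratio was 1.16 (95% confidence interval 1.04 to 1.31), with an unadjusted p of 0.0166 and an adjusted p of 0.599 by edgeR. The log2 fold change of 0.22 ± 0.076 (SE) ran from 0.18 to 0.30 with each library left out. The gene lies at chr2:167642608-167689822 on the minus strand. In its longest transcript 28.3% of the 50-base windows also match Gm20431 on the same strand, so its count is uncertain. Tmem189 also shares 312 bases of exon with Cebpb on the opposite strand, which was at 5.81 to 9.15 CPM.

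Ept1 (now Selenoi), the ethanolamine phosphotransferase, lies at chr5:30232581-30272427 on the plus strand. It was at 30.6, 27.7 and 29.2 CPM in wild type and at 31.0, 33.6 and 31.9 CPM in knockout. The groups did not overlap in CPM, by a margin of less than 1 CPM, and did overlap in FPKM, where wild type was at 5.66, 5.18 and 5.10 and knockout at 5.56, 5.78 and 5.69. The log2 fold change was 0.14 ± 0.078 (SE), with an interval of -0.03 to 0.32 and an adjusted p of 0.617 by edgeR.

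Pex7, the import receptor for Agps, lies at chr10:19853900-19907689 on the minus strand. It was at 56.8, 49.7 and 51.9 CPM in wild type and at 57.2, 64.9 and 62.1 CPM in knockout. The groups did not overlap in CPM, with wild-type library 0 close below knockout library 0, and they did overlap in FPKM (36.6, 31.7 and 31.5 against 36.0, 39.0 and 38.7). The ratio was 1.16 (95% confidence interval 1.03 to 1.31), the unadjusted p 0.0213 and the adjusted p 0.599 by edgeR. With each library left out the log2 fold change ran from 0.17 to 0.27.

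The enzymes of breakdown overlapped between the groups. Agmo lies at chr12:37241641-37582202 and Tmem86a at chr7:47050601-47054777, both on the plus strand. Agmo was at 6.40, 5.79 and 7.46 CPM in wild type and at 9.34, 7.51 and 6.68 CPM in knockout, so knockout library 2 lay below wild-type library 2. Its log2 fold change was 0.27 ± 0.16 (SE), with an interval of -0.09 to 0.62, and it was 0.12 without knockout library 0. Tmem86a was at 27.2, 26.5 and 26.0 CPM in wild type and at 26.8, 32.8 and 28.0 CPM in knockout. Its log2 fold change was 0.13 ± 0.092 (SE), with an interval of -0.07 to 0.34, and it was 0.04 without knockout library 1, the only library that stood above the rest.

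**Figure D3:**
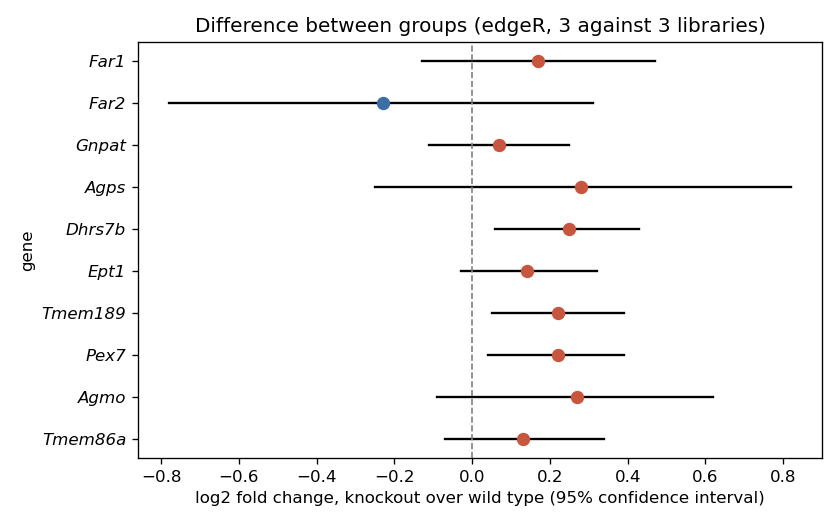
Log2 ratio of knockout to wild type for each gene, with points for the estimate and bars for the 95% confidence interval. The intervals of Dhrs7b, Tmem189 and Pex7 lie above 0 and the other 7 include 0, and no gene passed the adjusted threshold.

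Single libraries weighed on the set as a whole. Wild-type library 1 was the lowest of the 6 for 8 of the 10 genes, against 23% of all genes tested, and knockout library 1 was the highest for 6 of the 10, against 20.9%. For Far1 and Agps every other library was more than 25% above wild-type library 1, as held for 216 genes in all (1.5%). The median log2 fold change of the 10 genes was 0.12 when wild-type library 1 was left out, 0.14 when knockout library 1 was, and 0.24 when wild-type library 2 was. The 3 genes with an unadjusted p under 0.05 became 0 with wild-type library 1 left out and 1 with knockout library 1 or 2 left out. Over all genes the count went from 1193 of 14354 to 889 of 14436 without wild-type library 1. It was 516 of 14607 without knockout library 1 and 1028 of 14514 without knockout library 2. Of the 10 genes, 2 had such a p without wild-type library 0 or 2, and 3 without knockout library 0. Over all genes the counts were then 1615 of 14453, 1099 of 14567 and 1277 of 14591. With wild-type library 0, which had the high injury markers, left out, 9 of the 10 means were higher in knockout, and the count was also 9 when knockout library 2, which had the high adipocyte markers, was left out. The part of cell makeup or RNA quality in these differences was not tested.

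**Figure D4:**
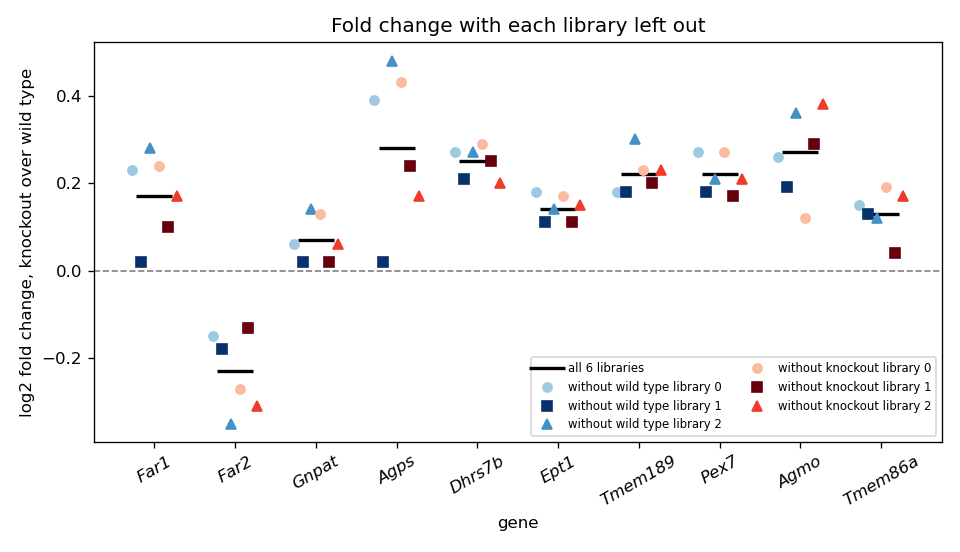
Log2 fold change of each gene with all 6 libraries (line) and with each library left out in turn (points, shape and shade by library). Far1 and Agps drop to 0.02 without wild-type library 1, Dhrs7b stays between 0.20 and 0.29, and Far2 is below 0 in every fit.

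In the authors' deposited table, which compares the groups with Cuffdiff, 88 of 13404 genes were called significant and 0 of the 10 were among them. In the authors' deposited table Tmem189 had a log2 fold change of 0.26 (p = 0.022, q = 0.507), Dhrs7b 0.28 (p = 0.0331, q = 0.587) and Agps 0.24 (p = 0.0457, q = 0.661). In the authors' deposited table Pex7 had 0.19 (q = 0.837) and Far1 0.12 (q = 0.989), and Far2, at -0.25, was not tested.

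Of 20 other genes of ether lipid and wax ester metabolism, 17 were tested and 0 passed the test in either direction. In knockout 12 means were higher and 5 lower, against 48.3% higher over all genes. The median log2 fold change was 0.03, against -0.01 over all genes. Without wild-type library 0 there were 8 higher means of the 17, and without wild-type library 2 there were 15. Chpt1, the choline phosphotransferase that makes the choline counterparts of Ept1's products, was at 1460 ± 96.5 CPM in the wild-type libraries (SD, n = 3) and at 1693 ± 159 CPM in the knockout libraries, with a log2 fold change of 0.21 ± 0.094 (SE; adjusted p = 0.599 by edgeR). Acbd5, a peroxisomal membrane protein that binds acyl-CoA, was at 131 ± 12 CPM and 147 ± 6.78 CPM. Cept1, which makes both choline and ethanolamine phospholipids, was the 1 gene of the 17 tested whose groups did not overlap, against 7.12% of all genes higher without overlap. The wax synthases were near or at 0, with Awat1 and Dgat2l6 at 0 fragments in all 6 libraries and Awat2 at 3 to 8 fragments.

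The other proteins of the Pex7 import route gave 9 higher and 3 lower means among 12 tested genes, with 0 past the test and a median of 0.03. Without wild-type library 0, the library with the high injury markers, 6 of the 12 means were higher. None of the 12 was higher without overlap, against 7.12% of all genes. Pex2, a ubiquitin ligase that recycles import receptors, was at 49.4 ± 2.86 CPM in the wild-type libraries (SD, n = 3) and at 53.9 ± 4.74 CPM in the knockout libraries (adjusted p = 0.673 by edgeR). Phyh, a phytanoyl-CoA hydroxylase that Pex7 also imports, was at 543 ± 56.4 CPM and 595 ± 51 CPM. Pex7 itself, at 0.22 on the log2 scale, was thus above the median of its partners, a difference that was not tested.

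Agmo needs tetrahydrobiopterin, and of the 7 genes that make, control or recycle this cofactor 6 had a higher mean in knockout, against 48.3% of all genes. Of the 7, 0 passed the test, and the median was 0.12. The groups did not overlap for 3 genes higher in knockout (Pts, Qdpr and Pcbd1), against 7.12% of all genes, and for 1 lower (Gch1), against 6.96% of all genes. Pcbd1, which recycles it, was at 132 ± 2.72 CPM in the wild-type libraries (SD, n = 3) and at 150.0 ± 5.84 CPM in the knockout libraries without overlap, with a log2 fold change of 0.18 ± 0.061 (SE; adjusted p = 0.599 by edgeR). Gchfr, which feeds back on the first enzyme, was at 18.5 ± 2.61 CPM and 21.9 ± 1.54 CPM. Gch1, the first enzyme, was picked out after its values were seen, because it was the 1 gene in the other direction. It had 27, 26 and 23 fragments in the wild-type libraries and 16, 9 and 21 in the knockout libraries without overlap, with a log2 fold change of -0.59 ± 0.30 (SE; adjusted p = 0.603 by edgeR).

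Tmem189 draws electrons through cytochrome b5, and 5 of 5 genes of that supply had a higher mean in knockout, against 48.3% of all genes. Of the 5 genes, 0 passed the test, and the median was 0.13. The groups did not overlap for 2 of them, Cyb5b and Cyb5r3, against 7.12% of all genes. For Cyb5r3 the margin was very small, at 133, 133 and 134 CPM in wild type and 135, 137 and 135 CPM in knockout. Its log2 fold change was 0.03. Cyb5b, the outer mitochondrial membrane form, was at 489 ± 18.2 CPM in the wild-type libraries (SD, n = 3) and at 539 ± 12.1 CPM in the knockout libraries without overlap (adjusted p = 0.603 by edgeR). Cyb5r4, a reductase of this family, was at 52.2 ± 2.99 CPM and 57 ± 3.19 CPM.

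Across these 4 lists edgeR and DESeq2 each called 0 genes, and the genes with an unadjusted p under 0.05 by edgeR were Chpt1 and Pcbd1 alone.

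**Figure D5:**
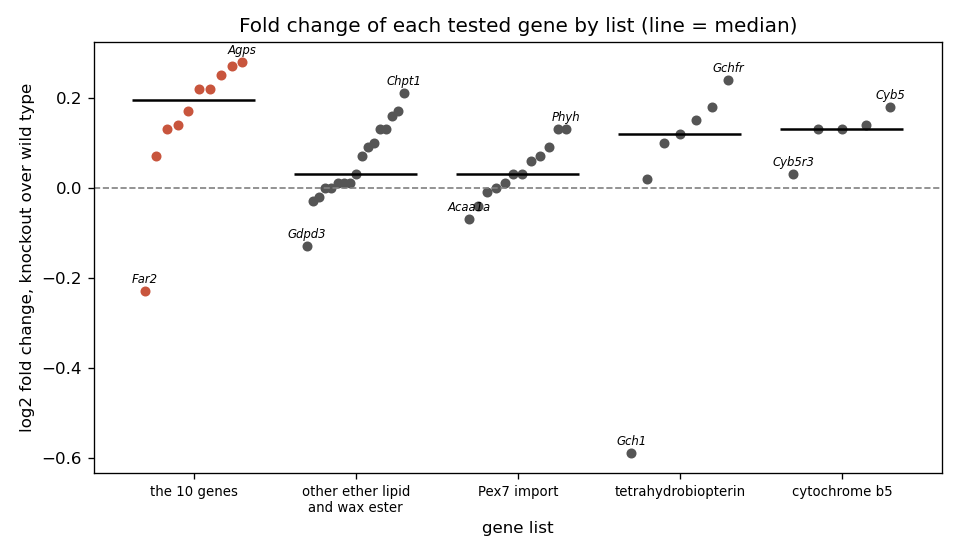
Log2 ratio of knockout to wild type for each tested gene of the set and of the 4 related lists, with the median of each list as a line. The medians are 0.19 for the 10 genes, 0.03 for the other ether lipid genes and for Pex7 import, 0.12 for tetrahydrobiopterin and 0.13 for cytochrome b5, and Far2 and Gch1 lie lowest.

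The genes whose level followed that of Far1 most closely were sought among 9750 genes whose log2 CPM averaged at least 3, by Pearson's r of log2 CPM over the 6 libraries. The top 5 were Wls (r = 0.9979), Hsd17b12 (0.9976), Slc17a3 (0.9934), Galnt1 (0.9930) and Nt5c3 (0.9917). Each was lowest in wild-type library 1, for example Slc17a3 at 717, 421 and 776 CPM in wild type and 642, 851 and 821 CPM in knockout. Hsd17b12, the ketoacyl-CoA reductase of fatty acid elongation, was at 78.1, 65.1 and 79.9 CPM in wild type and 75.9, 83.9 and 79.9 CPM in knockout. These values describe 6 libraries that share a depth scale, and 1 library sets much of the range.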

How the data were processed

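Total RNA of 6 kidneys (3 Far2 knockout, 3 wild type) was sequenced from stranded libraries depleted of ribosomal RNA, per the labels' protocols. Per the submitters' processing notes, the tools were Cuffdiff, Cufflinks 2.2.1, SAMtools 1.2, TopHat2 2.0.13, cutadapt 1.2.1 and Bowtie2 2.2.3, with the assembly mm10. Not given in the sources used here are the gene models, the strand setting and how multiply aligned fragments were counted. The authors deposited estimated counts, 1 per gene and library (not whole in 312 genes, 1.12% of all values by exact match, in none of the 10 genes) and FPKM scaled between libraries. Their deposited comparison holds a log2 fold change, a p-value and a q-value per gene. The file of scaled group means was left out. There were 0 columns of samples outside the series.

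The table numbers the libraries of a group 0, 1 and 2, and these numbers match no sample label, so groups came from the table's condition names. Counts were rounded, and low genes were removed by filterByExpr. Testing was by edgeR 4.0.16 in R 4.3.3 after TMM scaling (quasi-likelihood, no covariates, two-sided), at a Benjamini-Hochberg adjusted p under 0.05 over 14354 genes. Log2 CPM used a prior count of 2. TMM factors were 0.973 to 1.03. Alternatives were upper-quartile or RLE scaling, a filter of 1 CPM in 3 libraries or none, limma 3.58.1 (voom, log2(FPKM + 1), log2(FPKM + 0.1)), DESeq2 1.42.0, a threshold of 0.10 and each library left out. Counting error is large at these depths for genes with few fragments per library, such as Far2, Gch1, Gdpd1, Awat2, Cd68, Fcgr1 and Adipoq. Samples are called biological replicates, so p-values measure the spread between mice.

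The genes and lists were chosen with earlier results of these data known. All 10 genes are named, with, for each related list, members past the threshold and the 2 with the smallest p, and the 5 genes most like Far1. Promoters and gene spans came from RefSeq and GENCODE M21, and summaries were made in Python 3.11.15.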

Additional observations from a re-analysis of the deposited data

How the results depend on the processing

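Under every alternative, 0 of the 10 genes passed the threshold and 9 of the 10 had a higher mean in knockout. The number of all genes past the threshold was 0, and it was 1 without a filter, 13 by DESeq2, 1 at an adjusted p under 0.10 and 0 to 1 with a library left out. Of the 10 genes, those without overlap between groups numbered 4, with 3 by upper-quartile scaling and 4 to 6 with a library left out. They numbered 2 on log2(FPKM + 1) and on log2(FPKM + 0.1), where the cause was not tested. With all 6 libraries, 7.12% of all genes were higher and 6.96% lower without overlap in CPM, and 6.78% were higher in FPKM. That share was not computed for upper-quartile scaling or with a library left out. Smaller groups separate more easily, so a count of 6 is no sign of a firmer difference. The log2 fold change of each of the 10 genes kept its sign in every alternative. Genes of the related lists did not all do so: of the other ether lipid genes 12 of 17 were higher in knockout, with 9 by upper-quartile scaling and 8 to 15 with a library left out, and of the Pex7 import genes 9 of 12, with 7 by upper-quartile scaling and 6 to 9 with a library left out. The Far2 share of both reductases differed by -0.161 percentage points, by -0.194 on fragment counts and by -0.267 to -0.0613 with a library left out. The labels give nothing that pairs a knockout with a wild-type mouse, so the groups were compared unpaired. Depth limits Far2 most, at 19 to 40 fragments per library. With 3 mice per group, none of the ratios of the 10 genes, which ran from 0.851 for Far2 to 1.22 for Agps, passed adjustment over all genes, and the data do not show that the other genes are equal between genotypes.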

Other observations

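The genes closest to Agps in log2 CPM over the 6 libraries were looked up after the low value of Agps in wild-type library 1 had been seen. The top 5 were Tcaim (r = 0.9999), Azin1 (0.9928), Cycs (0.9925), Rnf181 (0.9913) and Zfyve16 (0.9911). Each was lowest in wild-type library 1. Cycs, the electron carrier cytochrome c, was at 441, 309 and 442 CPM in wild-type libraries 0, 1 and 2 and at 393, 477 and 489 CPM in knockout libraries 0, 1 and 2. Azin1, an inhibitor of antizyme, was at 146, 118 and 152 CPM in wild type and at 143, 156 and 159.7 CPM in knockout. None of these genes is a member of the lists of ether lipid genes, and the groups overlapped for Cycs and Azin1.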
